A study of Prunus sibirica with 30 samples.

Results

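The 26 genes described here encode proteins of the small (40S) subunit of the cytosolic ribosome, and RNA sequencing measured them during frost exposure of Siberian apricot (Prunus sibirica) flowers. They were chosen by name alone: a gene was taken if the Swiss-Prot name in its deposited description began with 40S ribosomal protein or named a cytosolic protein of that subunit. This gave 26 of the 143 complete genes of the expression table, beside 43 genes for the large (60S) subunit. The 26 genes carried 21 names, because S8, S15-4, S15a-1, S29 and S30 each stood for a pair of genes on different chromosomes. A ubiquitin-S27a fusion was not among the 143 genes. A list of 32 small-subunit protein names was compared with the table, and 11 of them (S2, S5, S6, S10, S13, S14, S20, S24, S27a, S28 and SA) matched none of these abundant genes. Less abundant genes were not analysed here.

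The small subunit binds mRNA, and its decoding centre checks the pairing of tRNA with each codon before the large subunit joins the amino acids. Its proteins are assembled on 18S rRNA into a head with a beak, a platform with the back, and a body with a foot. Plants often keep several gene copies for each ribosomal protein, and these genes are most active in growing tissue.

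Flowers of 2 clones were compared. Clone 453, labelled CR, is described as strongly resistant to frost, and clone 371, labelled NC, as weakly resistant. Each resistance class was represented by a single clone. Both were exposed to -4 °C and sampled at 0 h and after 15 min, 30 min, 1 h and 2 h, and no group was kept for the same times at another temperature. Clone and time gave 10 groups of 3 libraries, or 30 libraries. Nothing in the labels tells whether the 3 are separate trees, and the spread behind each p-value may thus be technical. The tissue label names the pistil at full bloom, while the protocol speaks of flowers and flower buds. None of the pistil or petal marker genes on the lists used here was among the 143 genes. Of the other marker lists, green tissue had 8 genes there, dividing cells 10 (histones and tubulins) and pollen or anther 1. In bulk tissue such as this, fewer cells of a kind and less RNA per cell cannot be told apart.

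Values are the deposited FPKM (sequenced fragments divided by gene length in kilobases and scaled by library size), which allow levels to be compared between genes of different length. The whole reads behind each value could be recovered, and each 40S gene held 2481 to 42118 reads per library, with a counting error of 2.01% at the lowest. The 143 genes together held 1731103 to 3544827 reads per library. Differences were tested with limma on log2(FPKM + 1) in a single model of all libraries. The Benjamini-Hochberg adjustment ran over all 143 genes, and a gene is said to have passed the test when its adjusted p-value was under 0.05. Changes are given as log2 differences with the standard error (SE) of the model. FPKM values are shares of a total, and the library medians themselves moved by over 0.1 (log2) in most comparisons. A difference is therefore called relative when each library was first centred on the median of all 143 genes. The table held genes by their mean over all 30 libraries, down to 594 FPKM. The mean in NC was below that level for 9 of the 26 genes, and the mean in CR for 0, so these 9 are listed because of their level in CR.

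Mean levels over the 30 libraries spanned 3.20-fold, from S9-2 to the S30 copy on chromosome 7. The gene for S9-2, an early-binding protein at the mRNA entry side of the body, was the most abundant and lies on chromosome 3 from 21773239 to 21775301 in a build that is not named (PaF106G0300011413.01). Its level was 2207 ± 343 FPKM in CR and 1645 ± 261 FPKM in NC (SD, n = 15 each). S25-2, a head protein near the tRNA exit site, followed with 1966 ± 312 FPKM in CR and 1398 ± 131 FPKM in NC (n = 15 each). The S15a-1 copy on chromosome 2, which encodes an early-binding body protein, came next with 1739 ± 243 FPKM in CR and 1372 ± 227 FPKM in NC (n = 15 each). These genes held the first 3 ranks in the 0 h groups of both clones.

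At the other end of the order, the S30 copy on chromosome 7 had a mean of 602 FPKM, S18 had 605 FPKM and the S15a-1 copy on chromosome 6 had 607 FPKM. S30 is a small protein near the mRNA entry channel and S18 a head protein at a bridge to the large subunit. Most steps of this order were small. In 19 of 25 steps from a gene to the next, the mean difference was smaller than 1 SD of that difference within groups, so neighbours there did not differ beyond their spread. The order was only partly shared by the clones: Spearman's rho between the 0 h levels of CR and NC was 0.751 across the 26 genes (a description across genes), and 12 genes stood at least 5 ranks apart. S4, a body protein bound to the foot of 18S rRNA, ranked 22 in CR and 10 in NC at 0 h. S29 on chromosome 1, a zinc-binding head protein, ranked 16 in CR and 26 in NC.

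**Figure D1:**
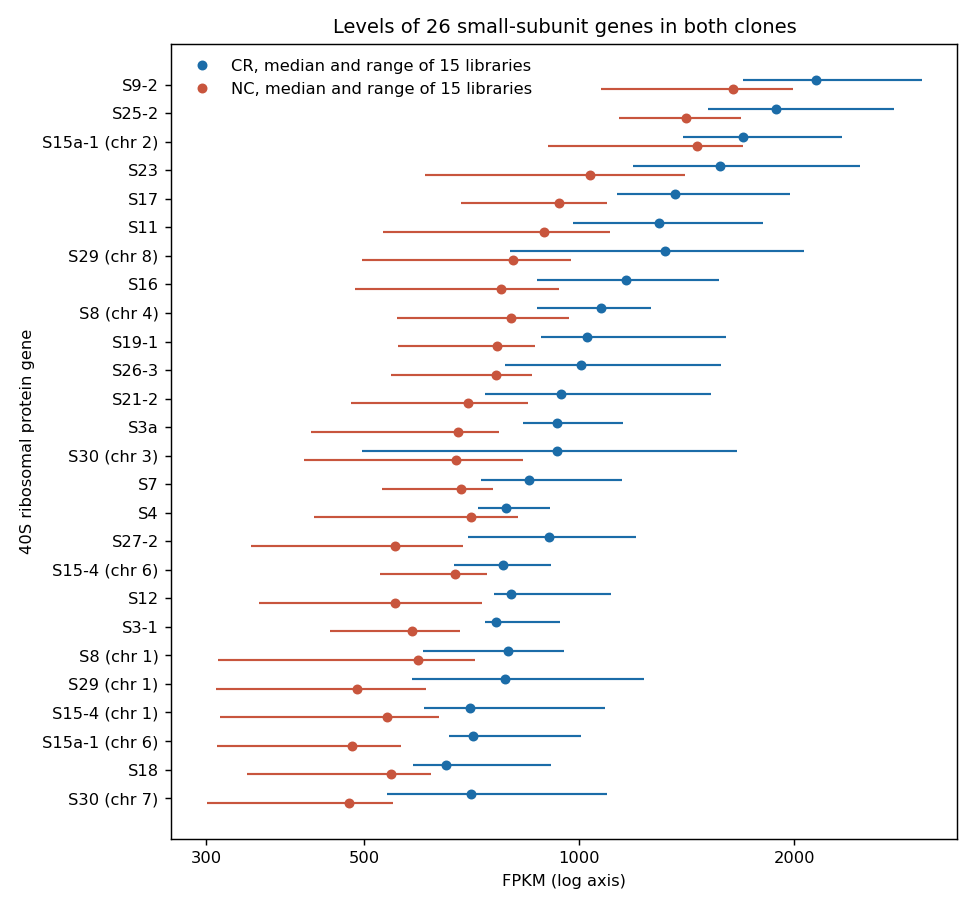
FPKM of the 26 small-subunit genes on a log axis, ordered by their mean over 30 libraries; points are medians and lines the full range of 15 libraries of CR (blue) and NC (red). Every CR median lies to the right of the NC median, while the ranges of most genes overlap.

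The 26 genes lie on all 8 chromosomes, with 9 on chromosome 1 and no tight cluster. The closest pair, S18 and S3a on chromosome 1, is 302607 bases apart. By position in the subunit, 11 genes encode head proteins (S3-1, S12, both S15-4 copies, S16, S17, S18, S19-1, S25-2 and both S29 copies) and 3 encode platform or back proteins (S3a, S21-2 and S26-3). The other 12 encode body proteins (S4, S7, both S8 copies, S9-2, S11, both S15a-1 copies, S23, S27-2 and both S30 copies).

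Small-subunit genes moved together between libraries. Within groups, the median SD of a gene was 0.158 (log2), and it fell to 0.0720 once the mean of the 26 genes was taken out of each library. That mean includes each gene itself, and the same step was not run with the median of all genes. The median of all genes also moved, from 544 to 1285 FPKM over the 30 libraries and from 954 to 1285 FPKM within CR at 0 h. Whether the 26 genes moved together beyond this shift of the whole table was thus not tested. The 40S genes also kept step with the 60S genes. The mean log2(FPKM + 1) of the 26 genes minus that of the 43 genes lay between -0.19 and -0.13 in all 30 libraries, with a mean of -0.17 in CR and -0.16 in NC. The median 40S level differed from library to library. At 0 h it was 1229, 961 and 1096 FPKM in the 3 CR libraries and 765, 692 and 680 FPKM in the 3 NC libraries. After 15 min it was 826, 782 and 781 FPKM in CR and 680, 802 and 709 FPKM in NC, so the ranges overlapped. After 2 h it was 1120, 1010 and 959 FPKM in CR and 652, 482 and 497 FPKM in NC, which again did not overlap. At 30 min and 1 h the CR libraries (870 to 891 and 826 to 937 FPKM) stood above those of NC (658 to 750.5 and 691 to 757 FPKM). The highest library of all was CR 0 h replicate 1, and the lowest were NC 2 h replicates 2 and 3.

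**Figure D2:**
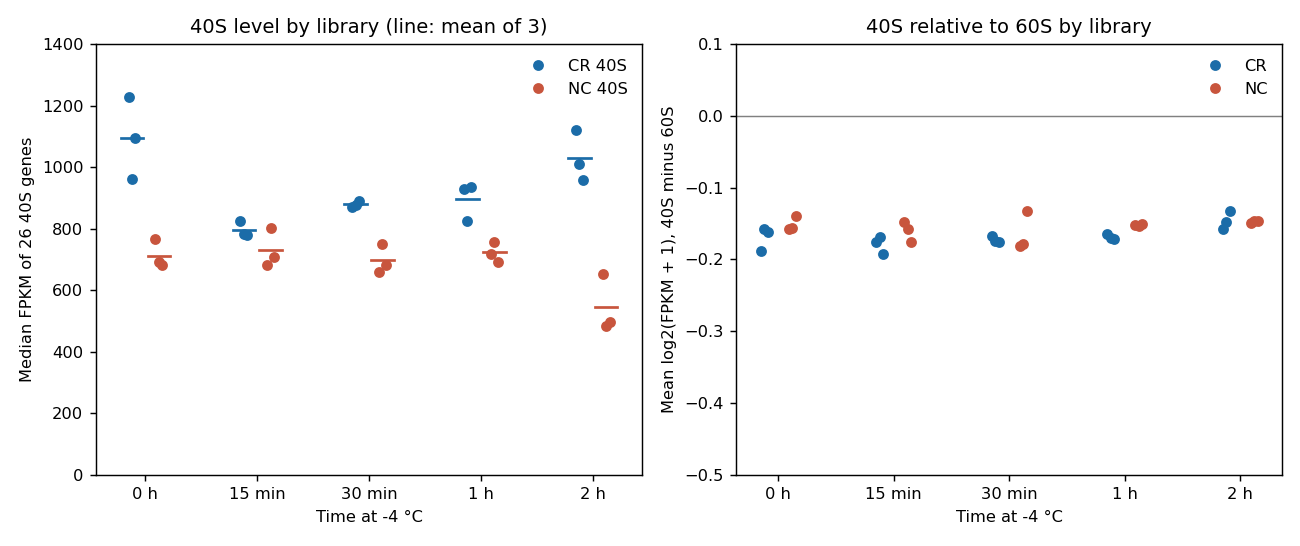
Left, the median FPKM of the 26 small-subunit genes in each of 30 libraries by clone and time at -4 °C, with a line at the mean of 3. Right, the mean log2(FPKM + 1) of the 26 genes minus that of the 43 large-subunit genes, which stays between -0.19 and -0.13 while the level on the left moves from 482 to 1229 FPKM.

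Every small-subunit gene of the table was higher in the frost-resistant clone over the 5 times. All 26 genes passed the test with a higher mean in CR and 0 with a lower one, by a median of 0.50 (log2). Of all 143 genes, 81.8% passed as higher and 6.99% as lower, with a median of 0.42, so a higher level in CR was the rule in this table. The cut of the table had a part in this. An NC mean below the lowest level was held by 31 of the 143 genes, and all 31 passed as higher. A CR mean below it was held by 3 genes, and all 3 passed as lower. These genes are part of every share over all genes given here. The 17 genes whose NC mean alone reached the lowest level of the table all passed too, with a median of 0.49. The 9 others had a median of 0.63, but they had to differ to be listed and add no support. By position, the medians were 0.51 for the head, 0.50 for the platform and 0.48 for the body. The ranges of 15 libraries each did not overlap for 7 of the 26 genes, against 16.8% of all genes. Of these, 3 were among the 17 genes and 4 among the 9 others, which add no support here either. The 40S genes took 14.2% ± 0.360 of the reads of the 143 genes in CR and 12.02% ± 0.794 in NC (SD, n = 15 each). This share counts all 26 genes, including the 9 listed because of their level in CR, so it is a description and adds no support.

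Among the 17 genes that did not need their CR level to be listed, the S29 copy on chromosome 8 (PaF106G0800030893.01, 15962135 to 15963141), a zinc-binding head protein, had the largest clone difference. Its level ran from 799 to 2068 FPKM in CR with a median of 1319.6, and from 496 to 972 FPKM in NC with a median of 808. The ranges overlapped, and the mean difference was 0.75 ± 0.080 (log2, SE; limma adjusted p = 1.55e-09), or 1.68-fold. The other 3 of the 4 highest values belong to genes whose NC means lay below the lowest level of the table, so their rank is a description and no test is given. S27-2, a zinc-finger protein of the body (PaF106G0100002671.01, chromosome 1, 19975999 to 19977224), ran from 699 to 1202 FPKM in CR with a median of 906, and from 346 to 687 FPKM in NC with a median of 552. The lowest CR library was thus above the highest NC library, with a mean difference of 0.81 ± 0.060. The S29 copy on chromosome 1 (PaF106G0100004968.01, 32169706 to 32171177) had 0.75 ± 0.063, and the S30 copy on chromosome 7 (PaF106G0700027023.01, 17006792 to 17007709) had 0.68 ± 0.064.

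The smallest differences were those of S4 and of the more abundant copies of S15-4 and S15a-1. S4 (PaF106G0600021952.01, chromosome 6, 3324126 to 3326329) ran from 722 to 912 FPKM in CR with a median of 790, and from 425 to 821 FPKM in NC with a median of 706. These ranges overlapped, and the mean difference was 0.27 ± 0.052 (limma adjusted p = 2.37e-05). The S15-4 copy on chromosome 6, which encodes a head protein near the decoding site, differed by 0.28 ± 0.049, the S15a-1 copy on chromosome 2 by 0.35 ± 0.062, and S18 by 0.38 ± 0.054. Centred on the library median, which takes out 0.38 (log2), these 4 genes lost or turned their difference: S4 was then lower in CR by -0.11 (adjusted p = 0.00242), S15-4 on chromosome 6 stood at -0.10 and S15a-1 on chromosome 2 at -0.03, both short of the threshold, and S18 at 0.00. On that scale 18 of the 26 genes were higher in CR (41.3% of all genes) and 1, S4, was lower (28% of all genes), with a median of 0.12. Of the 17 genes that did not need their CR level to be listed, 10 were higher and 1 lower, with a median of 0.11. The 9 others gave 8 of the higher calls and add no support. Against the 60S genes the median was 0.00, with 10 genes higher (24.5% of all genes) and 7 lower (46.9% of all genes). There 5 of the 17 genes were higher and 6 lower, while the 9 others gave 5 higher and 1 lower.

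**Figure D3:**
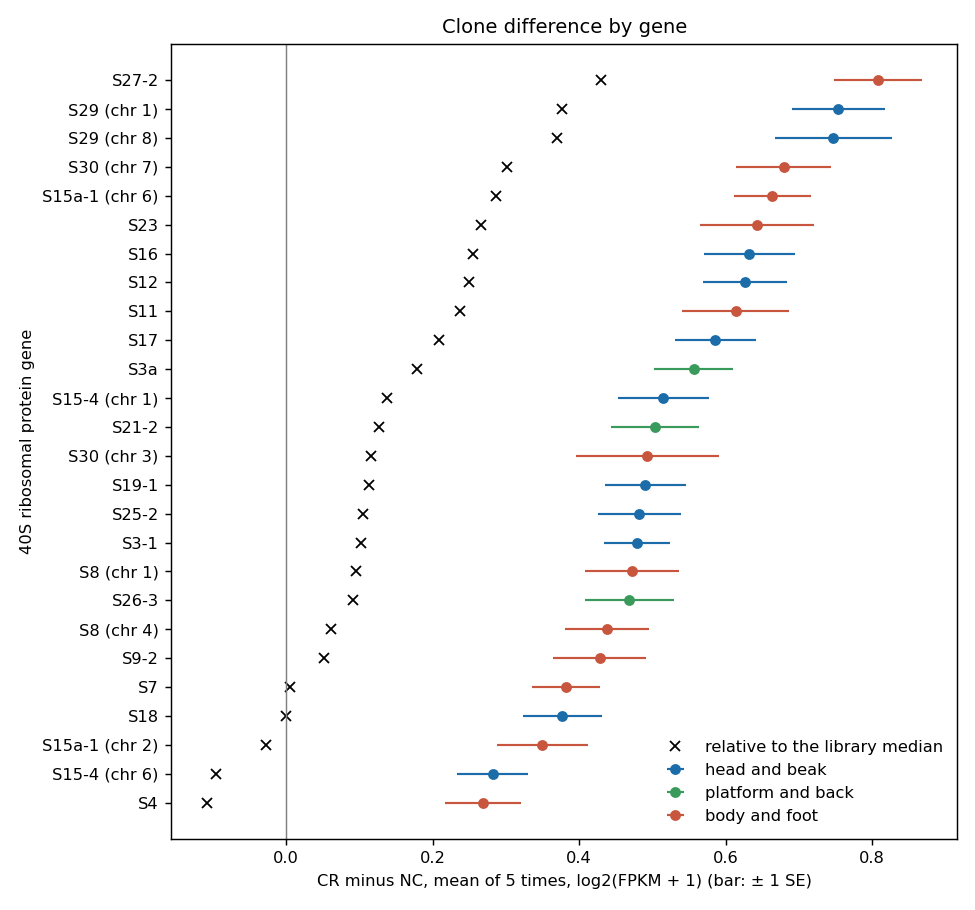
CR minus NC for each small-subunit gene, as the mean over 5 times of log2(FPKM + 1), with bars of 1 SE and colours for the position in the subunit. Crosses give the same difference after each library was centred on the median of all 143 genes; the points run from 0.27 (S4) to 0.81 (S27-2), the crosses from -0.11 to 0.43.

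The clone difference was widest at the start and at the end of the exposure. At 0 h, 25 of 26 genes were higher in CR and 0 lower (70.6% and 4.2% of all genes), by a median of 0.70, and S4 did not pass at 0.16. Among the 17 genes that did not need their CR level to be listed, 16 passed, and the median of the 17 was 0.70. After 15 min, 4 of 26 passed as higher and 0 as lower (11.2% and 3.5% of all genes), with a median of 0.19: S3a and S3-1, which line the mRNA exit and entry sides, S17, and the S15a-1 copy on chromosome 6. Of these, S3-1 and the S15a-1 copy are among the 9 genes listed because of their level in CR. S3a, a platform protein, stood at 932, 946 and 902 FPKM in CR and 675, 719 and 636 FPKM in NC at that time. The groups did not overlap, and the difference was 0.45 ± 0.12 (limma adjusted p = 0.0139). Without CR 15 min replicate 1 or NC 15 min replicate 3, 0 of 26 passed, and without NC 15 min replicate 1 only 2 did. When the 15 min difference was taken against the 60S genes, 4 passed as lower (21.7% of all genes) and 2 as higher (5.59%).

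After 30 min 14 of 26 genes were higher in CR (39.9% of all genes) and after 1 h 17 of 26 (41.3% of all genes), while 0 were lower (6.29% of all genes at either time), with medians of 0.35 and 0.39. S27-2, one of the 9 genes listed because of their level in CR, had the highest value at both times, with 0.64 ± 0.13 and 0.70 ± 0.13. Of the 17 genes that did not need that level, 7 passed after 30 min and 9 after 1 h. These counts fell by over 1.5 times without single libraries. At 30 min 9 passed without CR replicate 3 and 8 without NC replicate 3. At 1 h 6 passed without CR replicate 1, 10 without CR replicate 3, 11 without NC replicate 1 and 8 without NC replicate 3. After 2 h all 26 genes were higher in CR and 0 lower (84.6% and 5.59% of all genes), by a median of 1.01, and the groups did not overlap for any of the 26, as for 84.6% of all genes. The 17 genes that did not need their CR level to be listed all passed without overlap, by a median of 0.94. The 9 others add no support. The S29 copy on chromosome 8 then stood at 1630, 1467 and 1478 FPKM in CR and at 811, 496 and 503 FPKM in NC. Every CR library was above every NC library, and the difference was 1.37 ± 0.18 (limma adjusted p = 1.06e-07), or 2.59-fold. Centred on the median, 17 of 26 were higher at 2 h (39.2% of all genes). Of these calls, 9 fell among the genes that did not need their CR level and 8 among the 9 others.

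In CR most small-subunit genes fell within 15 min, and none of them passed as lower after 1 h or 2 h. After 15 min, 21 of 26 were lower than at 0 h and 0 higher (60.1% and 0.699% of all genes), by a median of -0.42 against -0.39 over all genes. Of the 17 genes that did not need their CR level to be listed, 13 were lower, and the median of the 17 was -0.46. The 9 others gave 8 of the calls. The same 0 h libraries served each of the 4 later times, so these comparisons are not independent. The S30 copy on chromosome 3 (PaF106G0300013999.01, 3868521 to 3869472) fell most. It stood at 1666, 965 and 944 FPKM at 0 h and at 745, 497 and 772 FPKM after 15 min, with the first 0 h library far above the others and no overlap. Its change was -0.80 ± 0.22 (limma adjusted p = 0.0049), and -0.53, short of the threshold, without CR 0 h replicate 1. S29 on chromosome 8 stood at 2068, 1444 and 1514 FPKM at 0 h and 1132, 800 and 1043 FPKM after 15 min, a change of -0.75 ± 0.18 (limma adjusted p = 0.00298) with no overlap.

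The 5 genes that did not pass after 15 min in CR were S3a at -0.11, S4 at -0.16, S15-4 on chromosome 6 at -0.18, S3-1 at -0.18 and S8 on chromosome 4 at -0.23. S3a stood at 1150, 867 and 1005 FPKM at 0 h and 932, 946 and 902 FPKM after 15 min, which overlapped. On the relative scale 8 genes were lower (17.5% of all genes), led by S30 on chromosome 3 at -0.44 and S29 on chromosome 8 at -0.39, and S3a at 0.25 and S4 at 0.21 were higher (13.3% of all genes). The 8 also included the other copies of S29 and S30, S9-2, S16, S21-2 and S26-3. Without CR 0 h replicate 1, the library with the highest 40S level, 6 of 26 passed in place of 21, and the median change was -0.28.

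After 30 min 15 of the 26 genes were still lower than at 0 h in CR and 0 higher (33.6% and 0% of all genes), by a median of -0.36. Of these calls, 9 fell among the 17 genes that did not need their CR level and 6 among the 9 others. The S30 copy on chromosome 3 again changed most, by -0.63 ± 0.22 (limma adjusted p = 0.0304), with 520, 854 and 926 FPKM after 30 min, all below the 0 h libraries. Of the 26 genes, 0 passed without CR 0 h replicate 1 and 0 without CR 30 min replicate 1. Without CR 0 h replicate 3, 9 passed, and without CR 30 min replicate 3, 8 passed. On the relative scale 2 genes, S19-1 and S30 on chromosome 7, were lower (2.8% of all genes). After 1 h the median was -0.30 and 0 of 26 passed in limma, although 15 had an unadjusted p under 0.05. Of all 143 genes, 56 had such a p, and 6.29% passed as lower. A weighted fit on the recovered reads (voom) also gave 0, the replicate number as a block gave 2, and leaving out CR 0 h replicate 2 gave 19. After 2 h the median was -0.10, and 0 of 26 passed in limma, 0 had an unadjusted p under 0.05 (6 of all 143 genes) and 0 passed with voom (0% of all genes passed in limma).

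In NC none of the small-subunit genes passed the test within 1 h, and most were lower at 2 h. After 15 min, 30 min and 1 h, 0 of 26 passed in limma and 0 with voom, with medians of 0.06, -0.03 and 0.02. The number with an unadjusted p under 0.05 was 1, 1 and 0 of the 26, and 17, 19 and 1 of all 143 genes. Over all genes, 0.699% passed as higher and 1.4% as lower after 15 min, and 0% passed at 30 min and 1 h. Relative to the median, S12, S21-2, S27-2 and S29 on chromosome 1 were higher after 15 min, by 0.24 to 0.29 (9.09% of all genes). After 30 min S21-2 was higher by 0.23 (6.29% of all genes) and S4 lower by -0.25 (8.39% of all genes) on that scale.

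After 2 h in NC 21 of 26 genes were lower than at 0 h and 0 higher (62.9% and 4.9% of all genes), by a median of -0.40 against -0.39 over all genes. S4 fell most, from 821, 761 and 730 FPKM at 0 h to 618, 425 and 439 FPKM at 2 h. The groups did not overlap, and the change was -0.66 ± 0.12 (limma adjusted p = 9.92e-05), or -0.34 relative to the median (adjusted p = 0.000403). S8 on chromosome 1 (PaF106G0100002020.01, 13434676 to 13437471), a body protein bound early to pre-18S rRNA, stood at 671, 601 and 582 FPKM at 0 h and 515, 312 and 377 FPKM at 2 h, without overlap, and changed by -0.65 ± 0.14 (limma adjusted p = 0.000634). S8 on chromosome 1 is among the 9 genes listed because of their level in CR. Of the 17 genes that did not need that level, 12 were lower. The 5 genes short of the threshold were S25-2 at -0.17, S21-2 at -0.22, S30 on chromosome 3 at -0.26, S26-3 at -0.28 and S29 on chromosome 8 at -0.39. Of the body genes 11 of 12 were lower, of the head genes 9 of 11 and of the platform genes 1 of 3. The count was 11 without NC 0 h replicate 1, NC 2 h replicate 2 or NC 2 h replicate 3. Once centred on the median, 7 genes were lower (26.6% of all genes): S4, S8 on chromosome 1, S15-4 on chromosome 1, S9-2, S18 and both S15a-1 copies. S25-2 was higher on that scale, by 0.16 (14.7% of all genes).

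The mean summed level of histones and tubulins, the list for dividing cells, was also lower in CR after 15 min and in NC after 2 h. All genes of the table fell by a median of -0.39 (log2) in each of these comparisons, and 60.1% and 62.9% of them passed as lower. The sums were not centred, so a fall of this list beyond that of the whole table was not tested. The 10 dividing-cell genes summed to 10266 to 14963 FPKM at 0 h in CR, 7760 to 9021 FPKM after 15 min and 9426 to 11705 FPKM after 2 h. In NC their sum was 7237 to 8953 FPKM at 0 h, 6739 to 8858 FPKM after 15 min and 4699 to 7789 FPKM at 2 h. These NC ranges at 0 h and 2 h overlapped. The sum of the 8 green-tissue genes did not follow the 40S level in every group. In CR it was 10479 to 16306 FPKM at 0 h, 8357 to 10289 FPKM after 15 min and 12186 to 12604 FPKM after 2 h. In NC it was 10015 to 12148 FPKM at 0 h and 5928 to 8433 FPKM at 2 h. After 15 min in NC it was 6122, 10072 and 8993 FPKM, which overlapped with 0 h, and replicate 1 was the lowest. There the median 40S level averaged 730.3 FPKM against 712 FPKM at 0 h. The part of tissue mix in the 40S levels was not tested.

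The changes from 0 h were also compared between the clones, by a test of the difference of changes. The change from 0 h to 15 min was more negative in CR than in NC for 13 of 26 genes and more positive for 0 (42% and 0.699% of all genes), by a median of -0.49. S30 on chromosome 3 had the largest difference, -1.05 ± 0.31 (limma adjusted p = 0.01). While its CR libraries fell, those of NC stood at 673, 572 and 562 FPKM at 0 h and 559, 833 and 777 FPKM after 15 min, which overlapped. Relative to the median 10 of the genes were more negative in CR (27.3% of all genes), while S3a, S3-1 and S4 were more positive, by 0.33, 0.28 and 0.34 (19.6% of all genes). Without CR 0 h replicate 1 the count was 6, and the value of S30 on chromosome 3, -0.78, was short of the threshold. It was 8 without NC 15 min replicate 2, and 7 after the trend with gene length was removed.

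For the change from 0 h to 2 h, 2 of 26 genes differed between the clones, both with a more positive change in CR, a smaller share than the 13.3% of all genes. More negative were 0 of the 26 and 3.5% of all genes. S8 on chromosome 1 stood at 953, 759 and 794 FPKM at 0 h and 924, 824 and 804 FPKM at 2 h in CR, which overlapped, while its NC libraries fell as given above. The difference of changes was 0.68 ± 0.20. This gene is among the 9 listed because of their level in CR, so the value is a description. S4 stood at 903, 779 and 912 FPKM at 0 h and 859, 834 and 819 FPKM at 2 h in CR, also overlapping, and its difference was 0.62 ± 0.16 (limma adjusted p = 0.0159). S15-4 on chromosome 1 came next with 0.48 ± 0.20 and did not pass (adjusted p = 0.0778). The smallest values were those of S21-2 at 0.07, S25-2 at 0.11 and S26-3 at 0.13. The calls were 0 when only the 4 groups concerned were fitted, and 0 without CR 2 h replicate 1, NC 0 h replicate 1 or NC 2 h replicate 2. They were 1 without CR 0 h replicate 2 or 3 or NC 2 h replicate 3. They rose to 11 without CR 0 h replicate 1 and to 16 without NC 2 h replicate 1. Once centred, 4 genes passed, S4, S8 and S15-4 on chromosome 1, and S18 (16.1% of all genes). All of these but S4 are among the 9 genes listed because of their level in CR.

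In some comparisons, but not in all, how far a small-subunit gene moved went with its length in the table, which ran from 350 bases (S25-2) to 1479 bases (S4). Across the 26 genes, Pearson's r between log2 length and the change from 0 h to 15 min in CR was 0.74, the more negative changes going with the shorter genes. The 9 shortest genes (350 to 666 bases) changed by a median of -0.55 and all passed, and the 9 longest (872 to 1479 bases) changed by -0.27 and 5 passed. For the clone difference over 5 times r was -0.49, with medians of 0.64 for the 9 shortest and 0.47 for the 9 longest. At single times it was -0.69 at 0 h, -0.63 after 1 h and -0.48 after 2 h, but 0.24 after 15 min and 0.0072 after 30 min. For NC after 2 h r was -0.43, Spearman's rho was -0.28, and r was -0.26 without NC 2 h replicate 1. There the medians were -0.39 for the 9 shortest genes, -0.45 for the middle 8 and -0.41 for the 9 longest, while 6, 6 and 9 of them passed as lower. These are descriptions across genes that share their libraries.

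The sign of the relation changed with clone and time. Within CR, r was 0.66 after 30 min, 0.61 after 1 h and 0.34 after 2 h, whereas within NC it was -0.61 after 15 min, -0.60 after 30 min and -0.29 after 1 h. Without CR 0 h replicate 1, r was 0.71 after 15 min and 0.35 after 1 h in CR, and turned to -0.11 after 2 h. Over all 143 genes r was 0.58 for CR after 15 min, -0.49 for the clone difference and -0.21 for NC after 2 h. When the trend with length over all genes was removed from each library, an alternative chosen after seeing the data, 21 of 26 genes still passed for CR after 15 min and 26 for the clone difference, while the 30 min count in CR went from 15 to 9. The lengths were multiples of 3 for 8 of the 26 genes, so most are not coding lengths alone. They equal the genomic span for S25-2 (350 bases) and S16 (840 bases).

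**Figure D4:**
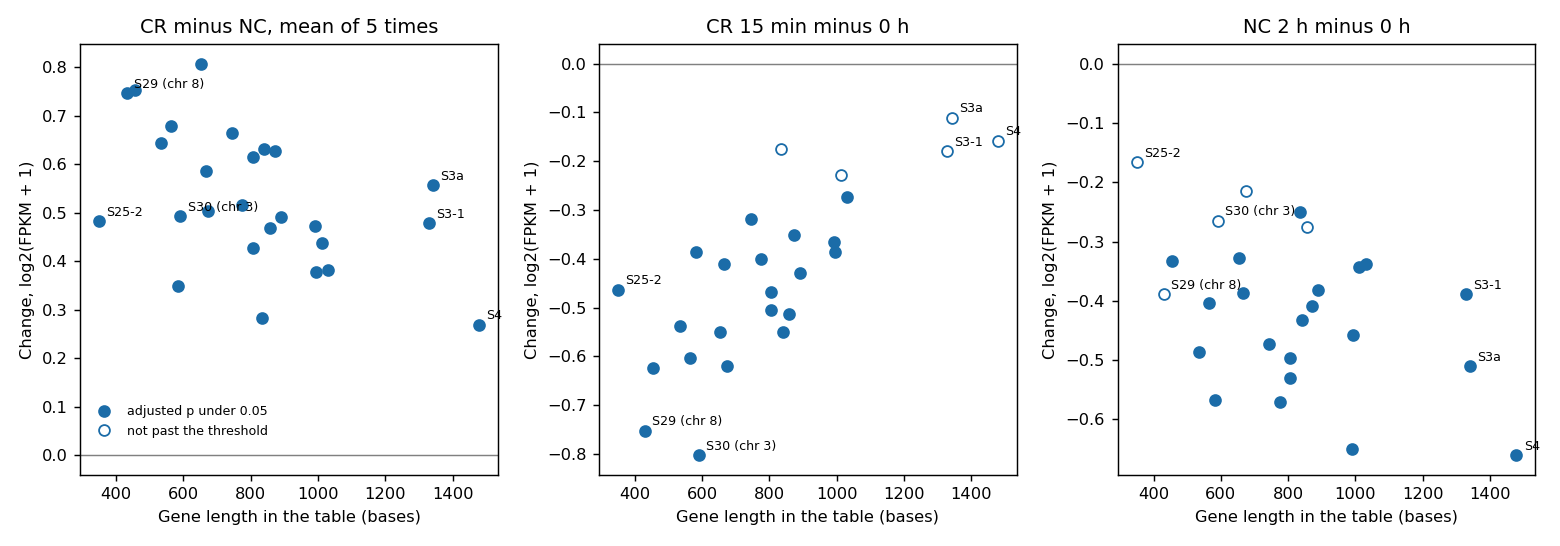
Change in log2(FPKM + 1) of each small-subunit gene against its length in bases, for CR minus NC over 5 times, CR from 0 h to 15 min and NC from 0 h to 2 h; filled points passed the test. Short genes such as S29 on chromosome 8 fell more after 15 min in CR (r = 0.74), while after 2 h in NC S4, the longest gene, fell most but the 9 shortest and 9 longest genes had medians of -0.39 and -0.41 (r = -0.43).

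The pairs of same-name genes allow the share of each copy to be followed within a library, where whatever moves all values together drops out. Of 15 same-name pairs in the table, 5 belong to the small subunit. In each of the 5 the less abundant copy had an NC mean below the lowest level of the table, between 461 FPKM (S30 on chromosome 7) and 563 FPKM (S8 on chromosome 1), and is listed because of its level in CR. That choice favours a lower ratio in CR, so the ratios are descriptions and no test of the clones is given. Near-identical copies may have exchanged reads in the authors' counting, so each ratio is that of the reads as assigned.

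The ratio of S15a-1 stood furthest apart between the clones. Its copy on chromosome 2 (PaF106G0200009733.01, 22350480 to 22352219) exceeded the one on chromosome 6 (PaF106G0600022363.01, 5480251 to 5481365) in all 30 libraries, 2.34-fold on average in CR and 2.90-fold in NC. The log2 ratio ran from 1.03 to 1.40 in CR with a median of 1.24, and from 1.39 to 1.66 in NC with a median of 1.53. All but 1 of the 15 CR libraries, 14, were below every NC library. The difference was -0.31 ± 0.031 (SE). Within CR the group means lay between 1.16 and 1.27 at the 5 times, and within NC between 1.48 and 1.59, so the gap was present from 0 h.

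The ratios of S15-4 and S30 were also lower in CR on average. The S15-4 copy on chromosome 6 (PaF106G0600025643.01, 28828821 to 28830713) stood 1.07-fold above that on chromosome 1 (PaF106G0100000387.01, 2328179 to 2330000) in CR and 1.26-fold in NC, a log2 difference of -0.23 ± 0.055. In CR at 0 h the mean log2 ratio was -0.05 ± 0.18 and in NC at 2 h it was 0.61 ± 0.20 (SD, n = 3 each), the ends of its range. For S30 the copy on chromosome 3 exceeded that on chromosome 7 by 1.21-fold in CR and 1.38-fold in NC, a log2 difference of -0.19 ± 0.064. With the median over times in place of the mean it was -0.13. The log2 ratio of S30 ran from -0.18 to 0.61 in CR and from 0.24 to 0.70 in NC, so the clones overlapped widely over all times. After 15 min it ran from -0.12 to 0.28 in CR and from 0.32 to 0.68 in NC. After 30 min it ran from -0.18 to 0.43 in CR and from 0.61 to 0.70 in NC. The clones did not overlap at these times, but did at 0 h, 1 h and 2 h.

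For S29 and S8 the mean ratios of the clones were close. S29 on chromosome 8 exceeded its copy on chromosome 1 by 1.60-fold in CR and 1.61-fold in NC, with a log2 difference of -0.01 ± 0.051. S8 on chromosome 4 (PaF106G0400015529.01, 16902821 to 16905174) exceeded that on chromosome 1 by 1.41-fold in CR and 1.45-fold in NC, with a difference of -0.03 ± 0.028. That mean hides opposite gaps at single times. After 15 min the log2 ratio of S8 ran from 0.55 to 0.66 in CR and from 0.32 to 0.46 in NC, and after 2 h from 0.39 to 0.50 in CR and from 0.64 to 0.83 in NC, without overlap at either time.

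**Figure D5:**
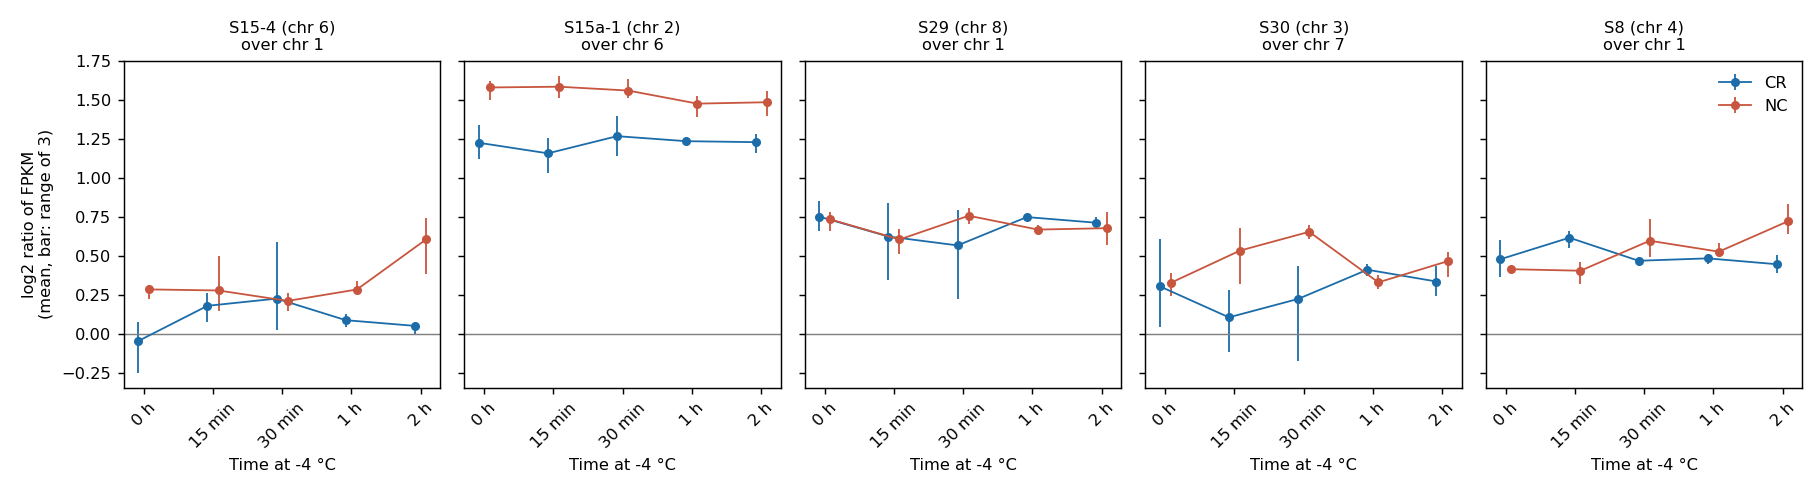
Log2 ratio of FPKM between the 2 genes of each same-name pair of the small subunit, by time at -4 °C; points are means of 3 libraries and bars their range, with CR in blue and NC in red. The mean S15a-1 ratio lies between 1.16 and 1.27 in CR and between 1.48 and 1.59 in NC at each time. The S29 ranges of the clones overlap at every time but 1 h.

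Other genes of translation were set beside the 26. Of the 43 genes for 60S proteins, 42 were higher in CR over the 5 times and 0 lower (81.8% and 6.99% of all genes), with a median of 0.53. Of the 31 genes with an NC mean below the lowest level of the table, 9 are 40S genes. The 60S genes were not split by that level, so some of the 42 may be listed because of their level in CR. After 15 min in CR 29 of the 43 were lower (60.1% of all genes), with a median of -0.43. After 2 h in NC 33 were lower (62.9% of all genes), with a median of -0.40. These counts include the 4 acidic P proteins of the stalk, which recruits elongation factors. All 4 were higher in CR, as were 81.8% of all genes. RACK1, a scaffold protein that binds the head of the small subunit, was 1 gene here. Its clone difference was 0.28 and passed, but it was -0.10 and lower relative to the median. After 2 h in NC it changed by -0.68 and passed, and its difference of changes between the clones at 2 h, 0.68, passed as well. Of 2 genes for elongation factor 1-alpha, which brings tRNA to the ribosome, 1 was higher in CR and 0 lower. Initiation factors had 0 genes in the table.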

How the data were processed

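RNA of 30 flower samples was made into libraries by Illumina protocols, per the labels' protocols. The submitters' processing notes list GATK, SAMtools 0.1.18, Picard and HISAT2. For the counter, annotation and build, the sources used here give no name. The authors deposited FPKM per gene and library. The table used here held 143 complete genes, and 1 incomplete entry was left out. FPKM times gene length gave whole multiples of 1 step per library for 4290 of 4290 values (tolerance 1e-06), and these reads gave the depths and the voom fit. The implied library size exceeded these reads, which were 9.75% to 20.5% of it.

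Tests on log2(FPKM + 1), with a pseudocount of 1, used limma 3.58.1 under R 4.3.3, with 10 group means, a mean-variance trend and two-sided p-values adjusted over 143 genes with a threshold of 0.05. Requiring 1 FPKM or more in 3 or more libraries removed no gene. The steps were tested on simulated data. Pair ratios between clones were also run through an exact permutation test of clone labels within times, whose p-values are not given because the less abundant copy of each 40S pair was listed through its level in CR. Libraries were grouped by clone and time from the labels.

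The members, lists and tests were chosen with earlier results of these data known. Named with values were the 3 highest and 3 lowest genes by level, the 4 highest and 4 lowest by clone difference, the 3 at each end by mean change in each clone and by the 2 h difference of changes, the largest passing change of each comparison, and every gene that shares its name. Alternatives changed the centring, pseudocount, trend, fitted groups, weights, filter, pairing, length trend and single libraries. No sequence is printed, since no reference was used here.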

Additional observations from a re-analysis of the deposited data

Results flagged for a closer look

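The clones differed in their change from 0 h to 15 min, by a test of the difference itself, for 13 of the 26 small-subunit genes. Among them S30 on chromosome 3 had -1.05 (CR minus NC, log2). The 13 are not split here by the 9 genes listed because of their level in CR. For the change from 0 h to 2 h the same test gave 2 genes, S4 with 0.62 and S8 on chromosome 1 with 0.68. S8 on chromosome 1 is among the 9 genes listed because of their level in CR, so its value is a description. At 15 min 42% of all 143 genes passed with a more negative change in CR, and at 2 h 13.3% with a more positive one.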

How the results depend on the processing

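Scaling decided most counts of genes that passed. Centring on the median of all genes gave 9 at 30 min, 10 at 1 h and 17 at 2 h for the clones, 10 and 2 for CR after 15 and 30 min, 4, 2 and 8 for NC after 15 min, 30 min and 2 h, and 4 for the difference of changes at 2 h. Of all 143 genes, 34 were then higher and 23 lower at 30 min, 30 and 24 at 1 h, and 56 and 34 at 2 h. For CR it was 19 and 25 after 15 min and 1 and 4 after 30 min. For NC it was 13 and 8 after 15 min, 9 and 12 after 30 min, and 21 and 38 after 2 h. Centring on the 60S genes gave 17 for the clones over 5 times and 14, 7, 7 and 13 at 0 h, 30 min, 1 h and 2 h, 8 and 2 for CR after 15 min and 1 h, and 6 and 5 for NC after 15 and 30 min. Of all 143 genes, 35 were then higher and 67 lower over 5 times. It was 37 and 51 at 0 h, 9 and 40 at 30 min, 22 and 28 at 1 h, and 22 and 56 at 2 h. For CR it was 28 and 8 after 15 min and 25 and 0 after 1 h. For NC it was 21 and 8 after 15 min and 22 and 2 after 30 min. Centring on the 60S genes turned the balance of 3 counts: 6 for the clones at 15 min (2 higher, 4 lower), 2 for CR after 30 min (both higher) and 5 for NC after 2 h (3 higher, 2 lower). Over all 143 genes these were 8 higher and 31 lower, 15 and 1, and 41 and 10. Centring on other genes than ribosomal ones gave 22 for the clones at 30 min, 7, 3 and 2 for CR after 15 min, 30 min and 1 h, 4 and 1 for NC after 15 and 30 min, and 10 for the difference at 2 h. Of all 143 genes, 72 were then higher and 14 lower for the clones at 30 min. For CR it was 8 and 26 after 15 min, 1 and 11 after 30 min, and 0 and 8 after 1 h. For NC it was 17 and 6 after 15 min and 4 and 16 after 30 min.

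Fitting the compared groups alone gave 11 and 3 for CR after 15 and 30 min, 7 for NC after 2 h and 0 for the difference at 2 h. Removing the length trend gave 9 for CR after 30 min and 7 for the difference at 15 min. No share over all genes is given for these fits, so their counts only show how far the calls moved. Same-numbered libraries did not deviate together (median r of 0.07, against -0.05 for other numbers), so the numbers were not taken as pairs. The replicate block gave 2 for CR after 1 h (0 without it), 21 after 15 min in CR and 26 for the clones over 5 times, and left no other count over 1.5 times away.

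For single genes, the clone difference under median and 60S centring was -0.10 and -0.22 for S15-4 on chromosome 6, -0.027 and -0.15 for S15a-1 on chromosome 2, -0.00013 and -0.13 for S18, and -0.11 and -0.23 for S4. The 2 h difference of changes was -0.14 and -0.25 for S21-2, -0.11 and -0.22 for S25-2, and -0.082 and -0.19 for S26-3, and -0.0057 for S21-2 on genes other than ribosomal ones. For S21-2 it ran from -0.080 to 0.26 without single libraries, and was -0.080, -0.0072 and -0.019 without CR 0 h replicate 2, NC 0 h replicate 1 and NC 2 h replicate 2. The S30 pair difference was -0.13 with the median over times. The cause was not tested.

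Leaving out 1 library gave 0 to 4 for the clones at 15 min, 8 to 19 at 30 min and 6 to 16 at 1 h. It gave 6 to 23, 0 to 21 and 0 to 19 for CR after 15 min, 30 min and 1 h, and 11 to 25 for NC after 2 h. The differences of changes ran from 6 to 19 at 15 min and 0 to 16 at 2 h. The clone count over 5 times was 26 in all 30 such fits. Shares over all genes are not given for them, so these ranges describe the 26 genes alone.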
